A study of Oryza sativa with 6 samples.

Results

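WRKY transcription factors were followed in shoots of rice seedlings of a wild type and of the dst mutant. The members are all probe sets whose single gene carries a WRKY name with a number, with or without an Os prefix, in the array annotation or in the RefSeq gene table. This rule, which used no measured values, found 7 probe sets for 6 genes: WRKY9, WRKY24, WRKY51, WRKY62, WRKY71 and WRKY76. They are part of the 17905 genes that the annotation ties to 22436 single-gene probe sets. Rice has many more WRKY genes, which carry no such name in these tables and were not analysed here. The table also gives WRKY24 the name WRKY8, WRKY71 the name wrky38 and WRKY62 the name XB10.

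The wild type is the japonica cultivar Zhonghua 11, and the mutant is a line labelled dst, for which the labels give no cultivar. Total RNA came from shoots aged 25 days, grown in a cycle of 11 h in the light (26 °C) with 13 h in darkness (22 °C), and no stress treatment is named for either line. Each line has 3 biological replicates, each on its own Affymetrix rice array. DST, a zinc finger protein, is known to control stomata through hydrogen peroxide, and the series asks how the transcriptome of the mutant differs. The DST transcript was not analysed here.

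WRKY proteins carry a conserved domain with a zinc finger that binds a short DNA element called the W box, found in many promoters of defence and stress genes, WRKY genes among them. Many WRKY transcripts rise quickly after wounding, pathogens, salicylate or abscisic acid, and MAP kinases and VQ proteins act on WRKY proteins. In rice, WRKY62, WRKY71 and WRKY76 belong to the same subgroup of the family. WRKY62 was found as a partner of the immune receptor XA21, and WRKY62 and WRKY76 are known as repressors of defence. WRKY71 is known both from defence against bacterial blight and, with WRKY51 and WRKY24, as a repressor of gibberellin responses in aleurone cells of the grain. The role of WRKY9 is left out here.

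In dst shoots none of the 6 WRKY genes rose or fell beyond the spread between replicates. Of the 6 genes, 5 passed the filter on low signals and entered the test of 16013 genes, and WRKY24 did not. Of these 5 genes, 0 passed an adjusted p of 0.05 in limma, where 0.987% of all tested genes passed, and 0 had an unadjusted p under 0.05, where 12.6% of all tested genes did. With 5 genes and these background shares, a count of 0 is near the background and is not a result about the family. In each of the 5 tested genes the wild-type and dst values overlapped, as they did in WRKY24. They did not overlap in 19.2% of all tested genes, and with 5 genes a count of 0 at that share is not a result about the family either. Mean log2 signal was higher in dst for 2 of the 5 genes and lower for 3. It was higher in 54.3% of all tested genes, and with 5 genes this count is not a result about the family. The median log2 change was -0.03 over the 5 genes and 0.02 over all tested genes, and the median size of the change without its sign was 0.08 and 0.16. Since RNA came from whole shoots, fewer cells of a type and less RNA per cell cannot be told apart.

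**Figure D1:**
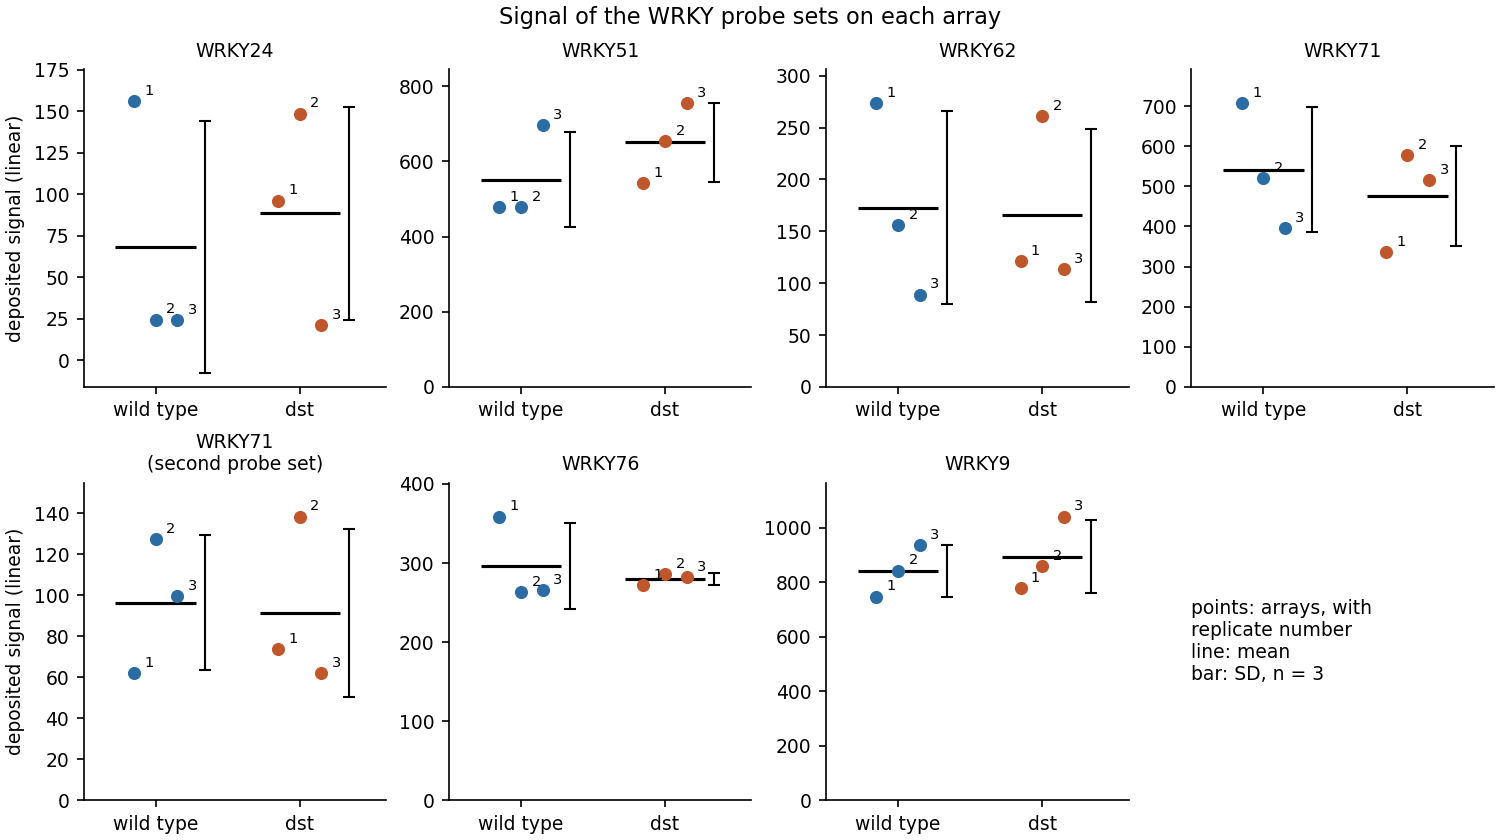
Deposited signal on a linear scale (vertical axis) of the 7 WRKY probe sets in wild type and dst (horizontal axis). Points are arrays with their replicate numbers, lines are means and bars are SD (n = 3). The values of the lines overlap in every panel, and WRKY24 lies near 24 on wild-type arrays 2 and 3 and at 156.2 on wild-type array 1.

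Among the genes known from immune signalling, WRKY62 gave signals of 273.4, 156.3 and 88.9 on the wild-type arrays 1 to 3 and of 121.2, 261.3 and 113.6 on the dst arrays 1 to 3. Wild-type array 1 and dst array 2 were the high samples and wild-type array 3 the low one, so that values within either line differed more than the line means. Line means were 173 ± 93.4 for the wild type and 165 ± 83.2 for dst (SD, n = 3). The log2 change was -0.03 ± 0.47 (SE) at an adjusted p of 0.992 in limma. Its 95% interval ran from 0.473-fold to 2.04-fold, so for this repressor of defence neither a doubling nor a fall of the same size was outside what the arrays allow.

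WRKY76 is the direct neighbour of WRKY62 in gene order, with 0 annotated genes between them, and acts as a repressor of blast resistance. Its signals were 358.8, 263.6 and 265.9 in the wild type and 271.8, 286.0 and 281.7 in dst. Wild-type array 1 stood above the other 5 arrays, which lay close together. The dst mean of 280 ± 7.28 lay within the spread of the wild-type mean of 296 ± 54.3 (SD, n = 3). The log2 change was -0.07 ± 0.20 (SE) at an adjusted p of 0.950 in limma and a 95% interval from 0.699-fold to 1.30-fold.

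WRKY71 was read by a pair of probe sets. The brighter one gave 706.9, 520.7 and 396.2 in the wild type and 335.4, 577.0 and 515.0 in dst. The highest and lowest samples were wild-type array 1 and dst array 1, and the other 4 lay between them in both lines. Means were 541 ± 156 and 476 ± 125 (SD, n = 3), a log2 change of -0.18 ± 0.26 (SE) at an adjusted p of 0.872 in limma and a 95% interval from 0.587-fold to 1.32-fold. The dimmer probe set gave 62.0, 127.4 and 99.4 in the wild type and 73.8, 138.3 and 62.1 in dst, and here wild-type array 1 was the lowest sample. Its log2 change was -0.10 ± 0.48 (SE) at an adjusted p of 0.967 in limma. The pair did not follow each other over the 6 arrays, with Pearson's r of -0.02 (exact permutation p = 0.976, two-sided) and Spearman's rho of -0.03 (exact permutation p = 1), and r was 0.25 without the 2 arrays farthest from the median of the brighter probe set. All further values of WRKY71 are those of the brighter one.

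WRKY51 works with WRKY71 in aleurone cells, where it strengthens the binding of WRKY71 to W boxes of an amylase promoter. Its signals in shoots were 478.6, 478.9 and 697.2 in the wild type and 543.0, 653.7 and 754.6 in dst. The dst samples lay toward the upper end, yet wild-type array 3 was above dst arrays 1 and 2. The mean was 552 ± 126 for the wild type and 650 ± 106 for dst (SD, n = 3). This log2 change of 0.25 ± 0.20 (SE) had an adjusted p of 0.735 in limma, the smallest of the 5 tested genes. The 95% interval ran from 0.874-fold to 1.61-fold.

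WRKY9 had the narrowest interval. Its signals were 746.6, 842.3 and 936.1 in the wild type and 779.2, 859.3 and 1040.9 in dst, with the third array the highest in both lines. Means were 842 ± 94.8 and 893 ± 134 (SD, n = 3), and the log2 change was 0.08 ± 0.15 (SE) at an adjusted p of 0.910 in limma. The 95% interval ran from 0.833-fold to 1.34-fold.

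WRKY24, a repressor of gibberellin and abscisic acid responses in aleurone cells, stayed below the filter, with a geometric mean signal of 55.2 against a limit of 70.5. Its signals were 156.2, 24.5 and 24.3 in the wild type and 96.2, 148.6 and 21.2 in dst. High values came from 1 wild-type and 2 dst arrays, and the other 3 arrays lay between 21.2 and 24.5. No detection calls were used, so whether these low signals are above background is not known. A fit without the filter gave a log2 change of 0.57 ± 0.94 (SE) at an adjusted p of 0.928 in limma and a 95% interval from 0.343-fold to 6.41-fold.

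**Figure D2:**
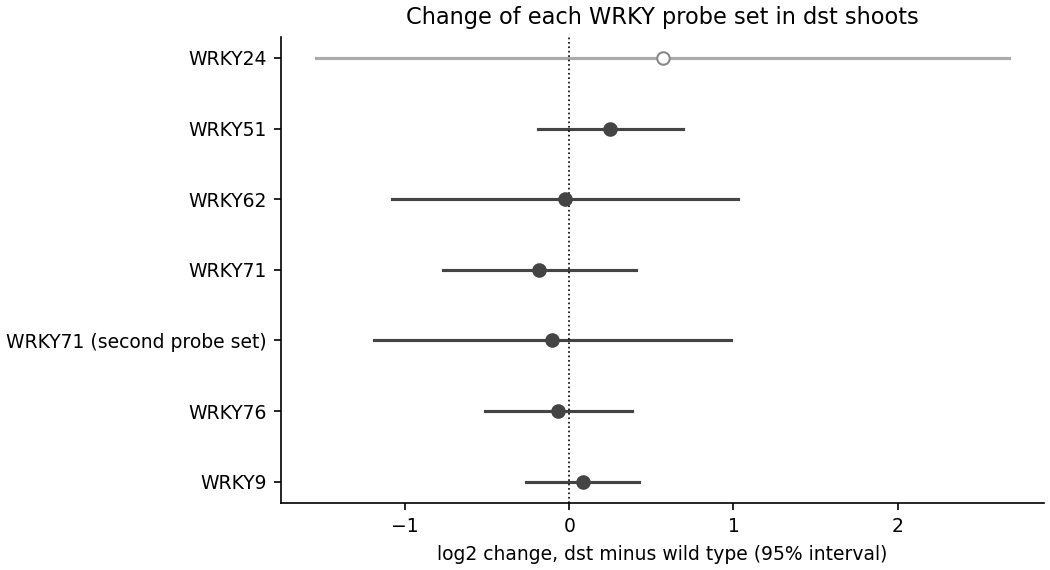
Log2 change in dst against wild type (horizontal axis) for each WRKY probe set, with the 95% interval from limma (3 arrays per line). The open grey point is WRKY24, from the fit without the filter on low signals. Every interval includes 0, and those of WRKY9, WRKY51, WRKY71 and WRKY76 lie within a 2-fold change either way.

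How far replicates of a line lay apart differed between the genes. The SD of log2 signal within lines was 0.18 for WRKY76, 0.19 for WRKY9, 0.28 for WRKY51, 0.42 for WRKY71, 0.74 for WRKY62 and 1.51 for WRKY24. Over all tested genes the median was 0.20, and the 5 tested WRKY genes had a median of 0.28. Dim probe sets vary more on these arrays, so each SD was also set against the value that the mean-variance trend of the fit gives at its signal. The ratio was 1.86 for WRKY71, 1.82 for WRKY62, 1.33 for WRKY51, 1.01 for WRKY9 and 0.638 for WRKY76. For WRKY24 it was 1.92, against the trend of the fit without the filter. How many of all genes reach such ratios was not counted. WRKY62 and WRKY71, which share a subgroup with WRKY76, varied more between replicate arrays than the trend at their signal, and WRKY76 less, but the dimmer probe set of WRKY71 had a ratio of 0.935. The brightness of the probe sets ranked from the 8.59th percentile of all genes for WRKY24 and the 19.5th for WRKY62 to the 57.5th for WRKY9, which describes the probe sets and not the amounts of transcript.

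**Figure D3:**
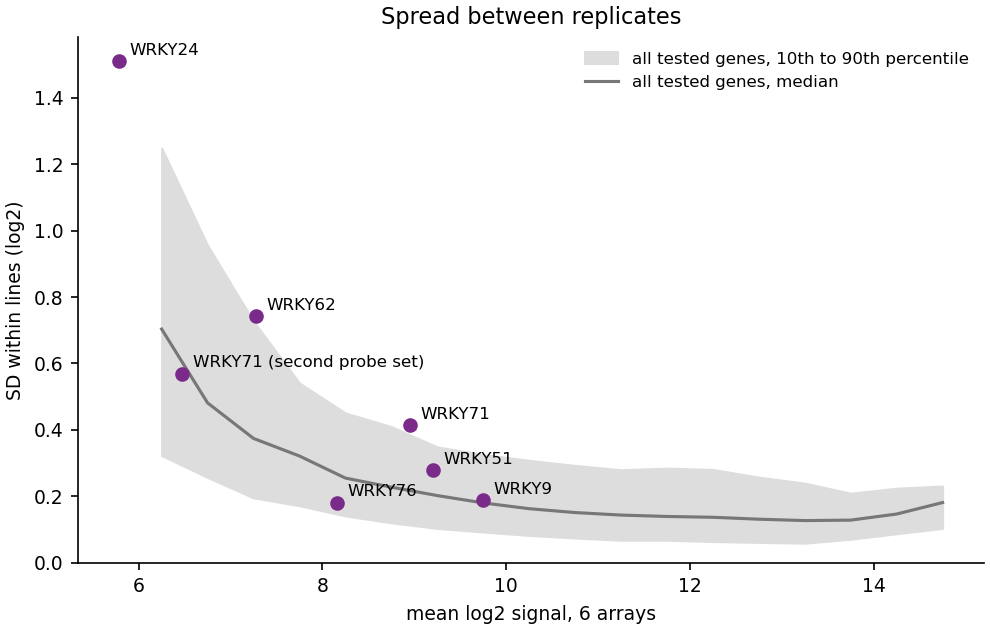
SD of log2 signal within lines (vertical axis) against mean log2 signal over the 6 arrays (horizontal axis). Purple points are WRKY probe sets, and the grey band and line give the 10th to 90th percentile and the median of all tested genes by signal. WRKY24, at 1.51, and WRKY62, at 0.74, vary most, while WRKY9 and WRKY76 lie near or under the median line.

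Wild-type array 1 held the highest value of 4 of the 6 genes, WRKY24, WRKY62, WRKY71 and WRKY76, where 18.4% of all 17905 genes had their highest value on that array. The other 2 genes, WRKY9 and WRKY51, had their lowest value there and their highest on dst array 3. Of all 17905 genes, 20.6% had their lowest value on wild-type array 1 and 19.2% their highest on dst array 3. Relative to its own mean over the 6 arrays, log2 signal on wild-type array 1 was 1.50 for WRKY24, 0.82 for WRKY62, 0.52 for WRKY71 and 0.33 for WRKY76. On dst array 2 it was 1.43 for WRKY24, 0.76 for WRKY62 and 0.22 for WRKY71, but near 0 for WRKY76. The dimmer probe set of WRKY71 went the other way on wild-type array 1, with its lowest value there, at -0.52. On dst array 2 it had its highest, at 0.64. Over all tested genes the median of the same measure was -0.01 on wild-type array 1 and 0.02 on dst array 2. Wild-type array 1 had the highest median signal of all rice probe sets, 140.9 against 117.6 to 131.3 on the other 5, and its part in this pattern was not tested.

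**Figure D4:**
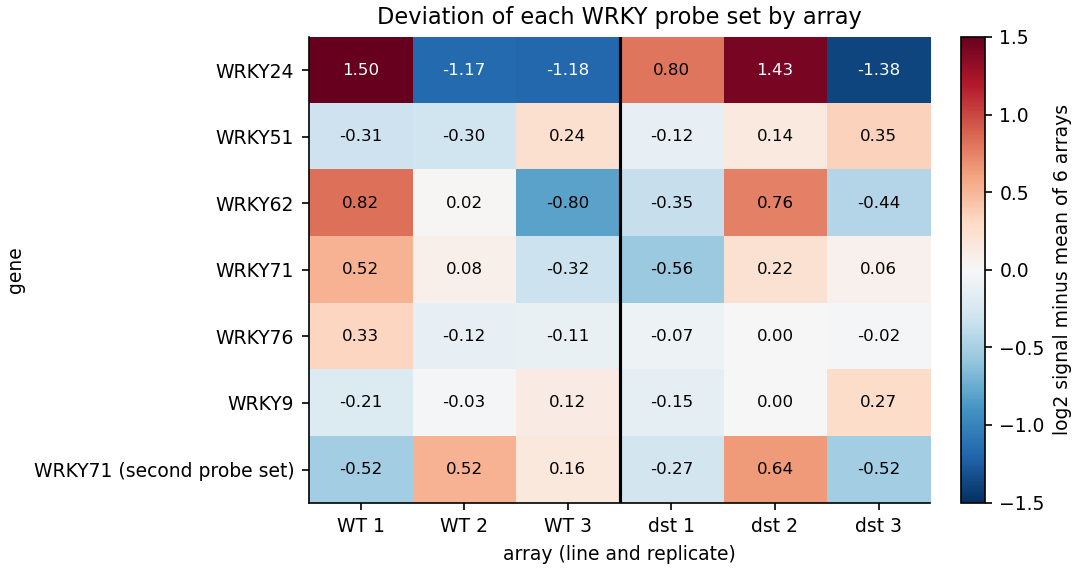
Log2 signal of each WRKY probe set (rows) on each array (columns) minus its mean over the 6 arrays, with the value in each cell. Red is above and blue below the mean. WRKY24, WRKY62, WRKY76 and the brighter probe set of WRKY71 are highest on wild-type array 1. WRKY9, WRKY51 and the second probe set of WRKY71 are lowest there. The black line separates wild type from dst.

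Across the 6 arrays, 15 pairs of WRKY genes were compared, and none passed Benjamini-Hochberg adjustment over the 15. Pearson's r was above 0 in 7 pairs. WRKY9 and WRKY51 were the closest pair by Pearson's r, which was 0.864 (exact permutation p = 0.0264, two-sided, adjusted 0.238) beside a Spearman's rho of 0.943 (exact permutation p = 0.0167, adjusted 0.219). Without the 2 arrays farthest from the median of WRKY51 their r was 0.679, and with the line means removed it was 0.875. In both lines WRKY9 and WRKY51 were highest on the third array. Removing line means leaves this in, and its part in the correlation was not tested. WRKY62 and WRKY71 had an r of 0.797 (exact permutation p = 0.0597, adjusted 0.238) and a rho of 0.829 (exact permutation p = 0.0583, adjusted 0.219). Their r was 0.820 with the line means removed and 0.428 without wild-type array 1 and dst array 2. Leaving out the 2 arrays farthest from the median of WRKY62 narrows the range, so the lower r does not show what the relation rests on. The neighbours WRKY62 and WRKY76 had an r of 0.701 (exact permutation p = 0.0764, adjusted 0.238) and a rho of 0.600 (exact permutation p = 0.242, adjusted 0.330), and r was -0.185 without the same 2 arrays. WRKY24 and WRKY62 had an r of 0.776 (exact permutation p = 0.107, adjusted 0.238) and a rho of 0.886 (exact permutation p = 0.0333, adjusted 0.219), and r was 0.098 without them. WRKY71 and WRKY76 had an r of 0.731 (exact permutation p = 0.0889, adjusted 0.238) and a rho of 0.600 (exact permutation p = 0.242, adjusted 0.330), and r was 0.630 without wild-type array 1 and dst array 1. In the opposite direction, WRKY9 and WRKY24 had an r of -0.750 (exact permutation p = 0.111, adjusted 0.238) and a rho of -0.829 (exact permutation p = 0.0583, adjusted 0.219), and r was -0.782 without wild-type array 1 and dst array 2. For the other 9 pairs r ran from -0.583 to 0.629. These points share arrays and their scaling, and 3 arrays per line are too few for values within a line.

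Genes that act around WRKY proteins were counted by name. Each count below stands beside the 0.987% of all tested genes that passed, a share at which 0 in a list of this size is near the background and says nothing about the list. Of 16 tested genes of the MAP kinase cascade 0 passed, with a median log2 change of 0.03. MPK17-2, also listed as MPK13, measured -1.23 ± 0.38 (SE), with wild-type and dst means of 312 ± 71.9 and 143 ± 79.3 (SD, n = 3) and an adjusted p of 0.250 in limma. EDR1-like measured -0.41 ± 0.21. Of 13 genes of salicylate and immune signalling 0 passed, with a median of 0.03. In this list NPR5 measured 0.58 ± 0.15 and NH3, of the NPR1 family of salicylate co-receptors, -0.69 ± 0.18, with adjusted p of 0.162 and 0.167 in limma.

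The 9 tested pathogenesis-related genes were all chitinase genes apart from PBZ1, so the list is no survey of such proteins. Among them OsChia2b and OsChia4a, both for chitinases that cut fungal cell walls, rose and 7 did not pass, where 0.987% of all tested genes passed. The median log2 change was 0.12, and mean log2 signal was higher in dst for 5 of the 9, near the 54.3% of all tested genes. OsChia2b rose by 1.03 ± 0.17 (SE) on the log2 scale, from 1114 ± 203 to 2269 ± 422 (SD, n = 3), with an adjusted p of 0.0274 in limma. OsChia4a rose by 0.88 ± 0.16, from 673 ± 118 to 1226 ± 142, with an adjusted p of 0.0443 in limma. A list drawn by names from the synthesis of diterpenoid phytoalexins, antifungal compounds of rice, had 14 tested genes. The names also took in genes of gibberellin synthesis, such as OsCPS1, OsKS1 and CYP701A6, so the list is not one of phytoalexin genes alone. Of the 14 genes 0 passed, with a median of -0.03. The cytochrome P450 genes CYP71Z6 and CYP76M7 measured 0.85 ± 0.19 and -0.97 ± 0.28, with adjusted p of 0.104 and 0.207 in limma. For VQ proteins the tables hold no gene by that name.

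Of 13 genes of abscisic acid and gibberellin signalling, mostly SAPK kinases, 0 passed, with a median log2 change of -0.01. There the kinase gene OsSAPK1 measured -0.27 ± 0.12 (SE) and GAMYB, the MYB activator of amylase genes, 0.29 ± 0.18. The transcription factor families NAC and bZIP, named by the same kind of rule, had 0 of 7 and 0 of 14 tested genes past the threshold, near the background of 0.987%. Their medians were -0.02 and -0.03, beside -0.03 for the WRKY genes. In NAC the smallest p belonged to NAC67, at 0.54 ± 0.15 (SE), followed by NAC45 at -0.34 ± 0.31, and in bZIP to OsbZIP52, at -0.40 ± 0.15, followed by OsbZIP50 at 0.42 ± 0.20.

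**Figure D5:**
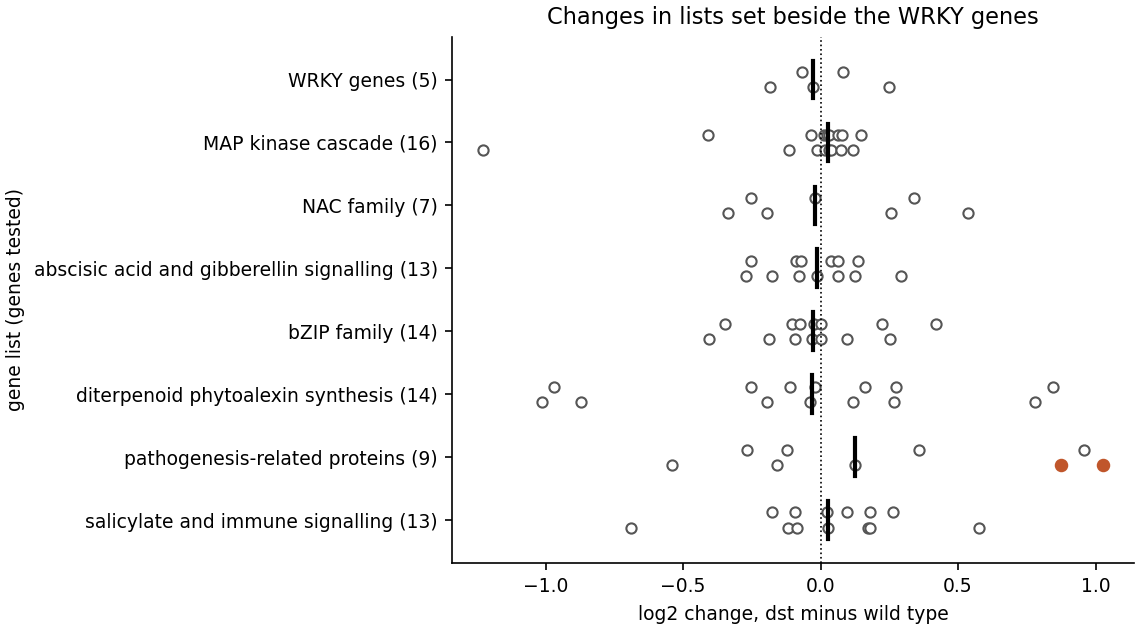
Log2 change in dst against wild type (horizontal axis) of each tested gene in the WRKY family and 7 further lists (rows, with the number of genes). Filled points passed an adjusted p of 0.05 in limma, open points did not, and black bars are medians. The row of diterpenoid phytoalexin synthesis also holds genes of gibberellin synthesis. The filled points are OsChia2b and OsChia4a, and all 5 WRKY genes lie between -0.18 and 0.25.

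Markers of green tissue were mostly bright. The chlorophyll-binding protein gene CAB2R lay between 30465 and 42915 and the activase gene rca between 31319 and 40735 on the 6 arrays. Of the 12 green shoot markers 11 passed the filter, and the dimmest were PPDK2, at 65.7 to 140.9, and RBCS-A, which did not pass, at 51.4 to 87.0. The summed signal of the 12, carried by the few brightest, was 135597 to 161379 over wild-type arrays and 133809 to 156159 over dst arrays. Of 3 root markers, the silicon transporter gene Lsi2 lay at 10.2 to 16.7, while Lsi1 lay at 1303 to 1764 and Lsi6, which is also known from leaves, at 3981 to 5278, and their summed signal was 5826 to 6594 over wild-type arrays and 5391 to 6398 over dst arrays. The 3 anther markers summed to 186 to 233 on wild-type arrays and 210 to 243 on dst arrays, with RTS at 11.2 to 28.4, below the filter, C4 at 33.1 to 107.3 and C6 at 56.2 to 171.2. The third array of each line had a lower highest signal, 31461 and 32620 against 41451 to 43119. The log2 ratio of 3' to 5' signal of the GAPDH controls was 0.35 to 0.62 on wild-type arrays and 1.01 to 1.36 on dst arrays, that of the actin controls overlapped at 1.83 to 2.05 and 1.81 to 2.01, and their part in the values above was not tested.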

How the data were processed

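The values that the authors deposited are linear signals, 1 for each probe set on each array, and the software behind them is not given in the sources used here. RNA was extracted with Trizol and labelled with biotin, per the labels' protocols. The mean after trimming 2% at either end was 500.1 on each array, so the arrays appear to have been scaled before deposit. Before taking log2, signals under 1 were raised to 1. The 187 control probe sets were removed, which left 57194, of which 34316 had a mean log2 signal at or above the 40th percentile (a signal of 70.5). These were fitted with limma 3.58.1 in R 4.3.3 (lmFit, eBayes with trend, no covariates), with Benjamini-Hochberg adjustment over all of them. The fit was also run on data simulated with independent noise from its own variances. Such data cannot show how effects shared by the probe sets of an array bear on the fit. The brightest probe set stands for a gene. Exact permutations used all orders of the 6 arrays in Python 3.11.15, and plots matplotlib 3.10.9.

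Names come from the platform annotation and the RefSeq gene table of assembly ASM3414082v1. The RefSeq table also gave the gene order. The members and lists were chosen with earlier results of these data known. All 6 genes are named, and of each pathway or family list the genes past the threshold or the 2 with the smallest p. Tissue markers were named after their values were seen. OsTLP names, planned as pathogenesis-related, belong to tubby-like proteins and were left out once the tables were seen, as was the actin gene OsRAc1. Alternatives covered normalization, filter, offset, variance model, array weights, blocks, arrays left out, threshold and probe sets per gene.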

Additional observations from a re-analysis of the deposited data

How the results depend on the processing

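The count of WRKY genes past the threshold was 0 in the fit reported and in each of the 15 other fits. In the fit reported it was also 0 at an adjusted p under 0.10, at an unadjusted p under 0.05 and with any tested probe set of a gene. The smallest adjusted p of a WRKY gene was 0.735 in the fit reported and 0.462, with the third arrays as a block, among the others. An unadjusted p under 0.05 was met by WRKY51 in the fit without wild-type replicate 3. The number of probe sets past the threshold on the whole array was 317 and ran from 80 without the variance trend to 606 with the third arrays as a block. The block for the third arrays, and the fit of replicates 1 and 2 only, were chosen in an earlier analysis after its author had seen the data. With the replicate number as a block, 0 WRKY genes and 463 probe sets passed, and the smallest adjusted p of a WRKY gene was 0.489. Deviations from the line means correlated at 0.05, 0.05 and 0.20 for replicates 1, 2 and 3, and the labels state no pairing. These values do not settle whether the numbers pair the samples. The third arrays of both lines shared a low highest signal, 31461 and 32620, and what else they share was not tested.

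Signs of such small changes were not stable. With array weights WRKY62 turned to 0.0544, and with replicates 1 and 2 only the dimmer probe set of WRKY71 turned to 0.185. With 1 array left out, the log2 change ranged from -0.00464 to 1.46 for WRKY24, from -0.432 to 0.378 for WRKY62, from -0.388 to 0.0505 for WRKY71, from -0.446 to 0.131 for its dimmer probe set, from -0.143 to 0.0796 for WRKY76 and from -0.0345 to 0.174 for WRKY9. WRKY51 kept its sign, at 0.135 to 0.429. The median over the genes ranged from -0.137 to 0.143 with 1 array left out. Signal over background is not known, which limits WRKY24 and the dimmer probe set of WRKY71. The cause was not tested for any of these shifts.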

Other observations

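Genes next to the WRKY genes in the order of the RefSeq table were counted, a choice made after seeing the data. The 10 nearest tested genes on either side of each WRKY gene make 102 different genes. The neighbours WRKY62 and WRKY76, each in the window of the other, are counted among them. Of the 102, 1 (0.980%) passed an adjusted p of 0.05 in limma, beside 0.987% of all tested genes. The gene that passed was LOC4347050, which has 18 annotated genes between it and WRKY76 and went from 2118, 2271 and 2687 in the wild type to 906.7, 682.3 and 1108 in dst. Its log2 change was -1.41 ± 0.18 (SE) at an adjusted p of 0.00677 in limma. Near WRKY71, LOC4328505 did not pass (log2 change 1.004 ± 0.212, SE, adjusted p 0.0750 in limma), although its 3 dst values, 738.1 to 1124, were above its 3 wild-type values, 428.8 to 615.8. LOC4347059, with 10 annotated genes between it and WRKY62, did not pass either (0.776 ± 0.180, SE, adjusted p 0.108 in limma). Its dst values, 481.9 to 641, were also above its wild-type values, 286.3 to 359.1. LOC4328505 and LOC4347059 are given because they had the smallest adjusted p in the windows of WRKY71 and WRKY62. LOC4347059 lies in the window of WRKY76 as well. In the windows of WRKY62 and WRKY76 log2 changes ran from -1.81 to 0.776, and the gene at -1.81 did not pass. Values of the lines did not overlap in 19.2% of all tested genes. The WRKY genes in whose windows these genes lie had overlapping values, and whether the neighbourhood bears on them was not tested.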
